A study of Mus musculus with 42 samples.

Results

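The TGF beta ligands, their receptors and the feedback and target genes around them were followed in the liver of 42 female APOE*3-Leiden mice, a strain that carries a human APOE variant as a transgene and responds to cholesterol in the diet. The 10 genes, Tgfb1, Tgfb2, Tgfb3, Ltbp1, Ltbp2, Tgfbr1, Tgfbr2, Smad7, Ctgf and Tgfbi, were chosen by name and matched through their Ensembl identifiers, all as protein-coding genes of GRCm38, among the 54446 genes of the count table. All 10 were among the 15574 genes with enough counts to be tested. A healthy reference group of 10 mice stayed on maintenance chow (Chow32w). The other 32 mice were 8 to 14 weeks old at the start and ate a semi-synthetic Western-type diet (WTD) with 15% cocoa butter, 40.5% sucrose and 1% cholesterol, first for a run-in of 3 weeks and then for 32 weeks. Of these, 16 received the diet alone (WTD32w) and 16 received it with atorvastatin mixed in (WTD&Atorvastatin32w), at 3.0 mg/kg/day at first and at 4.5 mg/kg/day from week 5. Both WTD groups were also given 0.05% sodium cholate from week 22, for 10 weeks. The transgene was present in all 3 groups, chow included, and the age of the chow-fed mice was not in the sources used here. Each library came from the snap-frozen liver of 1 mouse at 32 weeks. The mouse numbers of the chow group belong to another series than those of the WTD groups, so that a difference between series and the diet cannot be told apart.

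TGF beta is made as a latent complex, in which the mature ligand stays wrapped in its own propeptide. Latent TGF beta binding proteins, encoded by Ltbp genes such as Ltbp1, tie this complex to fibrillin and fibronectin fibres, and integrins or proteases release the ligand. Ltbp2, of the same family, is not known to bind latent TGF beta itself. The free ligand binds the type II receptor (Tgfbr2), which recruits and phosphorylates the type I receptor (Tgfbr1), and SMAD proteins carry the signal to the nucleus. Smad7 is induced by the signal and blocks the receptor. In the injured liver TGF beta is known as a main driver of the change of stellate cells into matrix-producing myofibroblasts.

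The start regions of 4 genes that differ in their response are shown first. Ligands, Ltbp2 and a receptor can then be set beside the same 5-letter SMAD box, CAGAC, the short element that SMAD proteins bind. RefSeq's GRCm38.p6 promoter table held 7 of the 10 genes, with 9 start sites. Each line gives the bases before the start, 5′ to 3′ on the gene's strand, with the SMAD box on either strand in capitals. The window of Ltbp2 was shortened to 209 bases because GENCODE places its start further upstream, and the others have 250 bases.
Tgfb1, chr7:25686752-25687001, plus strand: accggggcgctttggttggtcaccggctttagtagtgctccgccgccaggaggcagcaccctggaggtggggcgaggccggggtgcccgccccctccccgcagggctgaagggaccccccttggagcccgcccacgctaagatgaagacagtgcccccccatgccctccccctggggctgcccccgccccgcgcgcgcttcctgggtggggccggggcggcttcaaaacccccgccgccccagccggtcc
Tgfb2, chr1:186705990-186706239, minus strand: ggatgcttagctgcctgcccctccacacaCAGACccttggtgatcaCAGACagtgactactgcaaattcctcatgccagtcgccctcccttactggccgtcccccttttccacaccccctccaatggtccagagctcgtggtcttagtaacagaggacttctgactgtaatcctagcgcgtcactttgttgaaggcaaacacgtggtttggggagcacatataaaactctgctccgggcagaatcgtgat
Ltbp2, chr12:84876533-84876741, minus strand: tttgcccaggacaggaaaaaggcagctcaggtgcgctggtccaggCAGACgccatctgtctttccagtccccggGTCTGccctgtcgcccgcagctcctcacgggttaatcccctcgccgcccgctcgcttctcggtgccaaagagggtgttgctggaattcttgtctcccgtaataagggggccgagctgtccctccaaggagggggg
Tgfbr2, chr9:116175364-116175613, minus strand: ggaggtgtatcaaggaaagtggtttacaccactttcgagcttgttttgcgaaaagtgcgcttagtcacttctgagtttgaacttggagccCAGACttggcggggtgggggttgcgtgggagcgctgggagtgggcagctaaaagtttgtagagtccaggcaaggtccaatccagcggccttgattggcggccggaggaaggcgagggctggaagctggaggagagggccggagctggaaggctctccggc
The window of Tgfb1 held no SMAD box but 5 Sp1 boxes (GGGCGG) and 75.2% G and C, against a median of 52.4% over 32851 promoters of the table. The windows of Tgfb2 and Ltbp2 held 2 SMAD boxes each, and that of Tgfbr2 held 1. Over the 250 bases before each of the 9 start sites, 7 windows, of 6 genes, held the box. That short box was present in 42.2% of all promoters of this length, and the Sp1 box was present in 4 of the 9 windows and in 32.7% of all. GGAATG, the site of TEAD factors, and TGANTCA, the site of AP-1, were found in 0 of the 9 windows, against 12.6% and 6.75% of all promoters. No match of one motif overlapped a match of another, and a match describes letters only.

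Between 15661381 and 36224054 read pairs per liver were counted on genes. Levels are given as CPM, counts per 1000000 counted read pairs, scaled for library composition. Weak genes, taken as those that average 1 to 2 CPM within a group, had no count in 0% to 57.3% of cases per library. This share passed 20% in 9 libraries, of which 3 belonged to the chow, 5 to the WTD and 1 to the atorvastatin group. Its median was 5.84% on chow, 9.64% on WTD and 0.21% with atorvastatin. The treated and WTD groups that are compared below therefore also differed in this share. The missed share touched the weakest ligands, as given beside their values, but not them alone. On chow its Pearson's r with log2 CPM was -0.72 for Tgfbr2, 0.52 for Tgfb1, 0.48 for Ltbp1 and -0.45 for Tgfbr1. With atorvastatin r was -0.57 for Tgfb1 and -0.52 for Smad7. These r were not tested. Without the 9 libraries the log2 fold change of WTD against chow was 1.83 for Tgfb1 and 1.77 for Ltbp1, against 1.61 and 1.41 with all 42. The tissue label was borne out by albumin (Alb), the main secreted protein of hepatocytes, at 35798 CPM or more in each mouse. In a whole liver, fewer cells of a type and less RNA per cell cannot be told apart.

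All 10 genes were higher in WTD-fed than in chow-fed mice. A gene was called at an adjusted p under 0.01, from the quasi-likelihood test of edgeR adjusted over all tested genes by Benjamini and Hochberg's method. By this rule all 10 were called, where 33.5% of the tested genes were called in either direction, 17.5% as higher and 16.0% as lower. The median of the 10 log2 fold changes was 1.63, from 0.52 for Smad7 to 4.30 for Ltbp2, and the median over all tested genes was 0.03. In 4 genes, Tgfb1, Ltbp2, Tgfbr2 and Tgfbi, the lowest WTD-fed mouse lay above the highest chow-fed mouse, which was so for 3.40% of the tested genes.

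**Figure D1:**
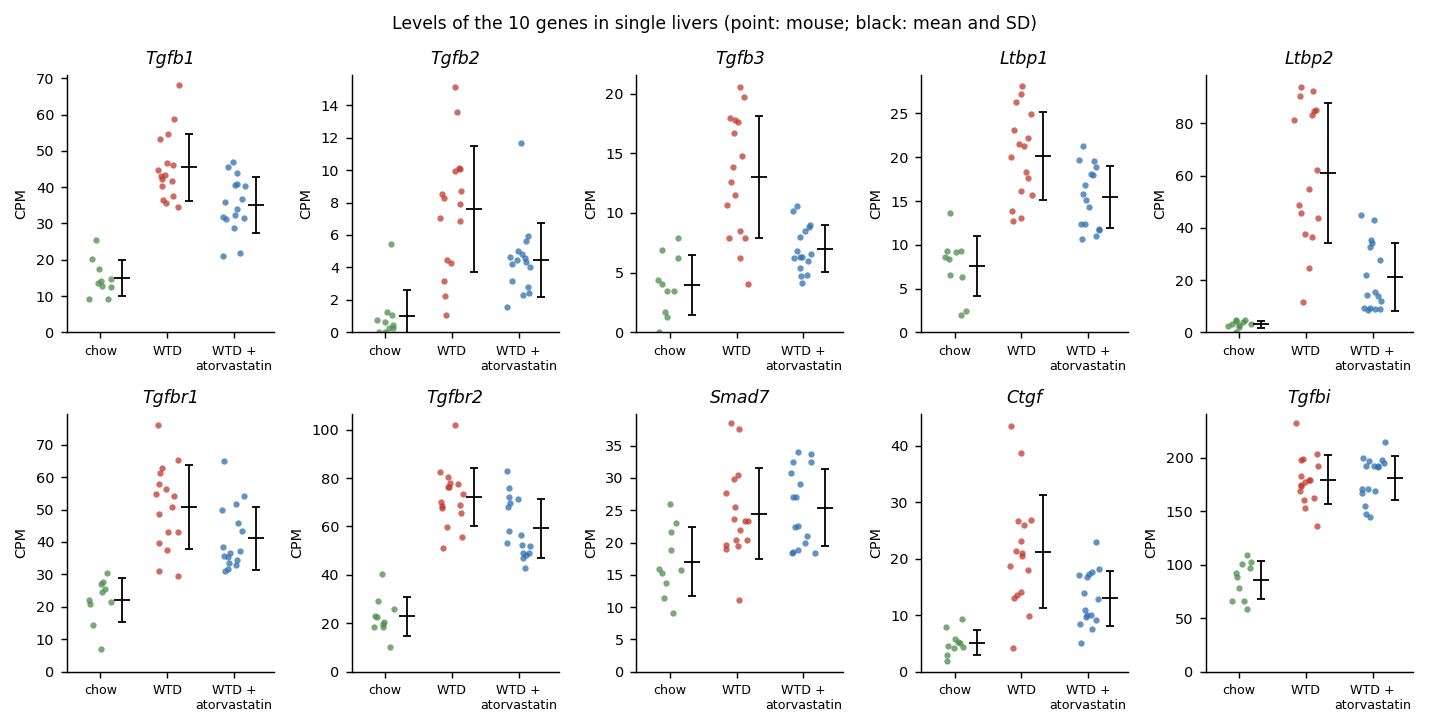
Levels of the 10 genes in CPM (vertical axis, from 0) in each of the 10 chow-fed, 16 WTD-fed and 16 atorvastatin-treated mice (points), with the mean and SD in black (an SD bar that would pass below 0 is cut there). The highest chow value of Ltbp2 was 4.74 CPM and its lowest WTD value 11.5 CPM, while the points of Smad7 overlap in all 3 groups.

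Atorvastatin-treated mice had lower levels than WTD-fed mice for 8 of the 10 genes, but 1 of the 10, Ltbp2, was called (edgeR adjusted p = 0.00029). Of all tested genes, 2.26% were called as lower, 4.84% as higher and 7.10% in either direction. At an adjusted p under 0.05 there were 4 genes, Tgfb1, Tgfb3, Ltbp2 and Ctgf, each lower, against 4.74% of the tested genes. The unadjusted p was under 0.05 in 8 genes, each lower, against 10.3% of the tested genes, and the median log2 fold change of the 10 was -0.37 against 0.00 over all tested genes. The number called depended on the tool. DESeq2 called Tgfb1, Tgfb3, Ltbp2 and Ctgf as lower, where it called 4.30% of all genes as lower. Limma-voom with sample quality weights called 8 genes as lower, all but Smad7 and Tgfbi, and 8.34% of all genes. Without the 9 libraries that missed many weak genes, edgeR called Tgfb2, Tgfb3 and Ltbp2 as lower, and 3.89% of all genes.
Set against chow, 9 of the 10 genes were called in atorvastatin-treated mice, each higher, where 25.0% of the tested genes were called, 14.2% higher and 10.7% lower. The exception was Tgfb3. The groups did not overlap for 4 genes, Ltbp2, Tgfbr1, Tgfbr2 and Tgfbi, against 2.88% of the tested genes. The comparisons share their groups and are given side by side, not as separate evidence.

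**Figure D2:**
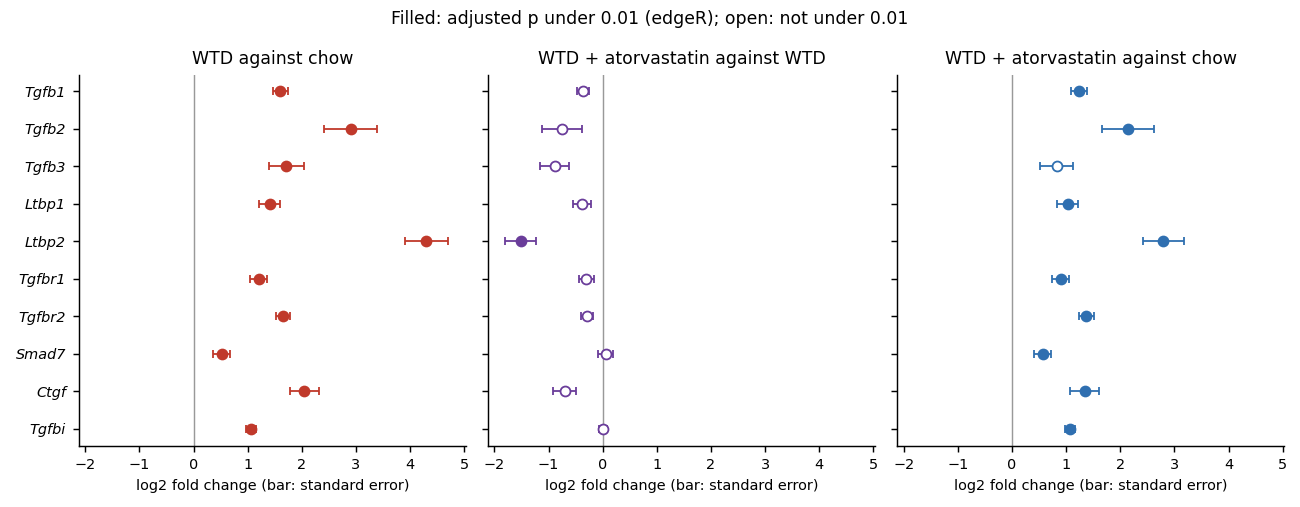
Log2 fold changes of the 10 genes (horizontal axis) in the 3 comparisons, from edgeR, with filled points for an adjusted p under 0.01. Bars are standard errors derived from the F statistic of the test. All 10 points are filled for WTD against chow, only Ltbp2 for atorvastatin against WTD, and all but Tgfb3 for atorvastatin against chow.

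Tgfb1 (chr7:25687002-25705077), the ligand made by most liver cell types that respond to injury, lay at 9.13 CPM in the lowest, 13.9 in the median and 25.5 in the highest chow-fed mouse. In WTD-fed mice the same 3 values were 34.5, 43.1 and 68.1 CPM, and in atorvastatin-treated mice 21.0, 35.0 and 47.0 CPM. All 16 WTD-fed mice were above every chow-fed mouse, and 13 of 16 treated mice were below the WTD median. Tgfb1 rose by 1.61 on the log2 scale in WTD-fed mice (SE 0.14, edgeR adjusted p = 8.4e-14), a 3.04-fold level. Between treated and WTD-fed mice the log2 fold change was -0.37 (SE 0.12, adjusted p = 0.025), and the treated mice remained above chow by 1.24 (SE 0.14, adjusted p = 3.6e-10).
Tgfb2 (chr1:186622792-186705989), a ligand best known from development and from epithelial cells, was the weakest of the 3 in each group. Its lowest, median and highest values were 0, 0.562 and 5.44 CPM on chow, 1.09, 8.10 and 15.1 CPM on WTD and 1.59, 4.40 and 11.7 CPM with atorvastatin. Every WTD-fed mouse was above the chow median, but the highest chow-fed mouse was above 5 of the 16 WTD-fed mice. No read was counted in 2 chow-fed mice, which allows up to 0.192 and 0.152 CPM (3 counts, counting error only), and these libraries missed 57.3% and 43.1% of the weak genes. Tgfb2 rose by 2.90 on WTD (SE 0.49, edgeR adjusted p = 2.6e-06) and was higher than on chow by 2.15 in treated mice (SE 0.48, adjusted p = 0.00030). Against WTD the log2 fold change with atorvastatin was -0.75 (SE 0.38, adjusted p = 0.20), with 15 of 16 treated mice below the WTD median. The highest chow-fed mouse, replicate 6, was at 5.44 CPM and the next at 1.25 CPM. The library of replicate 6 missed 24.4% of the weak genes. Without replicate 6, Tgfb2 was 3.81 above chow on WTD (SE 0.47, edgeR adjusted p = 1.8e-09) and 3.06 with atorvastatin (SE 0.45, adjusted p = 3.2e-07).
Tgfb3 (chr12:86056745-86079041), a ligand known from mesenchymal cells, had lowest, median and highest values of 0, 3.77 and 7.92 CPM on chow, 4.02, 13.2 and 20.6 CPM on WTD and 4.17, 6.42 and 10.6 CPM with atorvastatin. All 16 treated mice were below the WTD median, although the 2 groups overlapped. Tgfb3 rose on WTD by 1.72 (SE 0.32, edgeR adjusted p = 1.3e-05). Its log2 fold change with atorvastatin was -0.89 against WTD (SE 0.26, adjusted p = 0.016) and 0.83 against chow (SE 0.31, adjusted p = 0.032), neither past the threshold. The fall against WTD was called in other fits: with the share of missed weak genes as a covariate it was -1.25 (adjusted p = 0.00042), and without the 9 libraries -1.001 (adjusted p = 5.4e-05). The value against chow was 0.63 with the covariate (adjusted p = 0.074) and 0.47 without the 9 libraries (adjusted p = 0.066). The 3′ end of Tgfb3 overlaps Ttll5 on the other strand, and the libraries keep the strand.
Per kilobase of exon, which allows ligands to be compared, the sum of the 3 ligands was 4.31 ± 1.11 CPM on chow (SD, n = 10), 14.2 ± 2.48 on WTD (n = 16) and 9.83 ± 2.08 with atorvastatin (n = 16). Tgfb1 gave the largest share in each group, 69.2% ± 15.8 on chow, 64.3% ± 10.8 on WTD and 71.1% ± 5.49 with atorvastatin. The share of Tgfb2 was 3.98% ± 5.65, 9.01% ± 4.11 and 7.72% ± 3.02, and that of Tgfb3 26.8% ± 15.5, 26.7% ± 8.19 and 21.2% ± 4.61. The highest chow shares of Tgfb1, 100% and 92.9%, came from replicates 2 and 5, whose libraries missed 57.3% and 43.1% of the weak genes. In the other chow-fed mice the share of Tgfb1 lay between 52.6% and 70.5%. The shares of the 3 ligands overlapped between groups and were not tested.

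**Figure D3:**
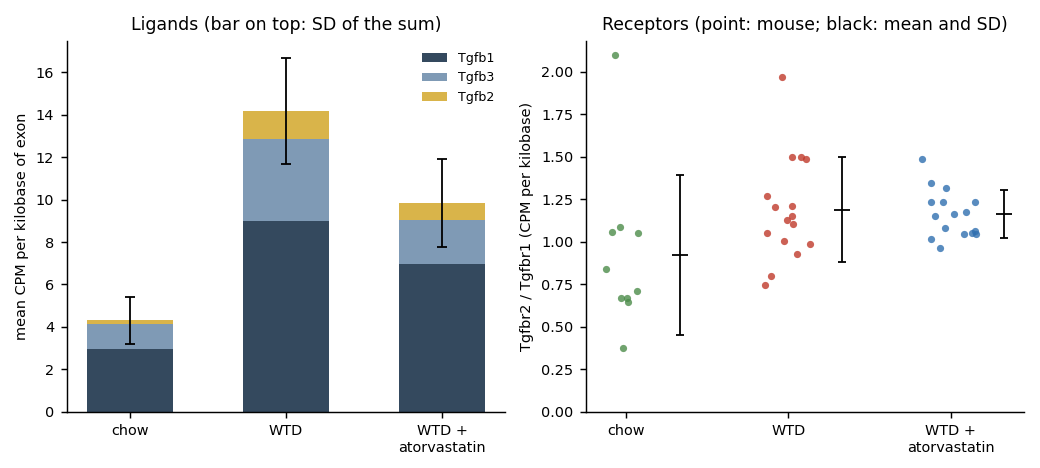
Left, mean level of the 3 ligands in CPM per kilobase of exon, stacked from 0, with the SD of their sum over 10 or 16 mice. Right, the ratio of Tgfbr2 to Tgfbr1 per kilobase in each mouse (points) with the mean and SD. The stack was 4.31 on chow and 14.2 on WTD, and the ratio ran from 0.374 to 2.10 on chow, with both ends in the 2 libraries that missed the most weak genes in that group (57.3% and 43.1%) and the other 8 chow-fed mice between 0.646 and 1.09.

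Ltbp2 (chr12:84783212-84876532), a matrix protein of the LTBP family that binds fibrillin microfibrils and, unlike its relatives, is not known to bind latent TGF beta itself, changed most of the 10 genes. Its lowest, median and highest values were 0.188, 3.08 and 4.74 CPM on chow, 11.5, 58.4 and 93.9 CPM on WTD and 8.72, 14.9 and 44.8 CPM with atorvastatin. Both WTD groups lay wholly above chow, all 16 treated mice were below the WTD median, and 5 of them were below the lowest WTD-fed mouse. The rise on WTD was 4.30 on the log2 scale (SE 0.40, edgeR adjusted p = 1.1e-11), a 19.7-fold level. The fall with atorvastatin was -1.51 (SE 0.29, adjusted p = 0.00029), which left a log2 difference of 2.79 from chow (SE 0.38, adjusted p = 1.5e-07). In the 42 fits that each left out 1 mouse, the value against WTD stayed between -1.62 and -1.46, and Ltbp2 was called in each.
Ltbp1 (chr17:75005568-75392512), which does carry latent TGF beta into the matrix, had narrower differences. Its lowest, median and highest values were 2.00, 8.49 and 13.6 CPM on chow, 12.7, 20.6 and 28.1 CPM on WTD and 10.7, 15.4 and 21.3 CPM with atorvastatin, so that 14 of 16 WTD-fed mice were above all chow-fed mice. It rose by 1.41 on WTD (SE 0.20, edgeR adjusted p = 3.3e-08) and was 1.03 above chow in treated mice (SE 0.19, adjusted p = 2.5e-05). With atorvastatin against WTD the log2 fold change was -0.38 (SE 0.16, adjusted p = 0.12).

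Tgfbr2 (chr9:116084293-116175360), the receptor that binds the ligand first, separated WTD from chow without overlap. It lay at 10.0, 21.5 and 40.1 CPM in the lowest, median and highest chow-fed mouse, at 51.3, 71.6 and 101.9 CPM on WTD and at 42.8, 54.99 and 82.9 CPM with atorvastatin. The rise on WTD was 1.65 (SE 0.14, edgeR adjusted p = 1.4e-14), and treated mice were 1.37 above chow (SE 0.13, adjusted p = 8.2e-12). Against WTD the treated mice differed by -0.28 (SE 0.11, adjusted p = 0.085), with 13 of 16 below the WTD median. Tgfbr1 (chr4:47353222-47414931), the kinase that phosphorylates the SMADs, went from 7.08 to 30.4 CPM on chow (median 23.4), from 29.6 to 76.1 CPM on WTD (median 52.6) and from 30.9 to 65.0 CPM with atorvastatin (median 37.0). It rose by 1.20 on WTD (SE 0.16, edgeR adjusted p = 2.7e-08) and was 0.90 above chow with atorvastatin (SE 0.16, adjusted p = 1.3e-05), where the 2 groups did not overlap. The value against WTD was -0.30 (SE 0.14, adjusted p = 0.14). Per kilobase the ratio of Tgfbr2 to Tgfbr1 was 0.921 ± 0.472 on chow, 1.19 ± 0.307 on WTD and 1.16 ± 0.140 with atorvastatin, within the spread between mice.

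Smad7, the feedback inhibitor, had the smallest log2 fold change of the 10 genes in both comparisons with chow. Its lowest, median and highest values were 9.11, 15.8 and 25.9 CPM on chow, 11.1, 23.3 and 38.5 CPM on WTD and 18.4, 24.8 and 34.0 CPM with atorvastatin, and only 5 of 16 WTD-fed mice were above every chow-fed mouse. The rise on WTD was 0.52 (SE 0.16, edgeR adjusted p = 0.0057), a 1.43-fold level. This call was near the threshold: the adjusted p was 0.015 in limma-voom and 0.0103 when only the 2 groups entered the fit, and leaving out 1 of 6 mice (chow replicates 1, 3, 6 and 7, WTD replicates 10 and 14) gave between 0.0107 and 0.0172. Treated mice were 0.57 above chow (SE 0.16, adjusted p = 0.0032) and differed from WTD by 0.05 (SE 0.13, adjusted p = 0.88).

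Ctgf (also Ccn2, chr10:24595442-24598683), a secreted matricellular protein that TGF beta induces, had lowest, median and highest values of 1.81, 4.76 and 9.34 CPM on chow, 4.17, 20.7 and 43.5 CPM on WTD and 5.03, 11.9 and 23.0 CPM with atorvastatin. All but 1 of the 16 WTD-fed mice were above every chow-fed mouse, and 15 of 16 treated mice were below the WTD median. Ctgf rose by 2.05 on WTD (SE 0.27, edgeR adjusted p = 1.7e-08) and was 1.34 above chow in treated mice (SE 0.26, adjusted p = 5.8e-05). Against WTD it differed by -0.71 (SE 0.22, adjusted p = 0.022). Tgfbi (chr13:56609523-56639562), another secreted matrix protein named for its induction by TGF beta, was the most abundant of the 10 genes and the least variable. It lay between 58.8 and 109.1 CPM on chow (median 90.5), between 136.2 and 232.3 CPM on WTD (median 178.0) and between 144.5 and 214.7 CPM with atorvastatin (median 191.6). It rose by 1.06 on WTD (SE 0.09, edgeR adjusted p = 1.2e-14), both WTD groups were wholly above chow, and the value against WTD was 0.01 with atorvastatin (SE 0.07, adjusted p = 0.96).
The share of the log2 difference between WTD and chow that was left in treated mice, as a description of the 3 fits, was 48.1% for Tgfb3 (31.8% without the 9 libraries), 64.9% for Ltbp2 and 65.6% for Ctgf. It lay between 73.0% and 82.9% for Ltbp1, Tgfb2, Tgfbr1, Tgfb1 and Tgfbr2, and at 101.1% for Tgfbi and 110.3% for Smad7. Whether these shares differ between genes was not tested.

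By level per kilobase of exon, Tgfbi came first in all 3 groups and in every mouse, with medians of 24.0, 47.2 and 50.8 CPM per kilobase on chow, on WTD and with atorvastatin. Tgfb2 came last, at 0.0971, 1.40 and 0.760. In between, the order differed by group. On chow, Tgfbr1 (3.58) and Smad7 (3.51) followed Tgfbi, and Tgfbr1 was above Smad7 in 4 of 10 mice, so these neighbours did not separate. On WTD, Tgfbr2 (8.75), Tgfb1 (8.55) and Tgfbr1 (8.04) followed, with Tgfbr2 above Tgfb1 in 8 of 16 mice. Ltbp2 was the last but one on chow (0.376) and reached 7.13 on WTD, where Ctgf was above it in 8 of 16 mice. With atorvastatin it stood at 1.82, below Tgfb3 in 9 of 16 mice.

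Genes that release TGF beta from its latent form rose with the ligands on WTD. Of the 15 tested genes of this list, 12 were higher and 0 lower in WTD-fed than in chow-fed mice, with a list median of 1.04 against 0.03 over all tested genes. Itgb5, Itgb1 and Itgav, integrin chains that pull on the latent complex, rose by 0.85, 0.66 and 1.04, and the matrix protease Mmp14 by 1.04 (SE 0.07, 0.06, 0.12 and 0.10). Rises of more than 2 on the log2 scale were those of Thbs1, a thrombospondin that frees the ligand, by 2.65, of the matrix protease Mmp2 by 2.96, of the plasminogen activators Plau and Plat by 3.29 and 3.59, and of the integrin chain Itgb6 by 3.42 (SE 0.32, 0.27, 0.38, 0.47 and 0.63). With atorvastatin, Mmp14 (-0.56, SE 0.08, edgeR adjusted p = 1.4e-05), Itgav, Itgb5 and Mmp2 fell against WTD. Furin, the protease that cuts the propeptide, rose by 0.38 (SE 0.08, edgeR adjusted p = 0.00069). Here and in the lists below, atorvastatin counts stand beside 4.84% of all tested genes called as higher and 2.26% as lower.
All 8 tested matrix partners of the latent complex rose on WTD (list median 1.64), among them Dcn, Bgn and Emilin1 by 0.99, 1.45 and 1.40 (SE 0.08, 0.11 and 0.11). Dcn, Fbn2 and Emilin1 fell with atorvastatin, by 0.26, 2.00 and 0.35. Fbn2 had no count in the median chow-fed mouse, and its fitted change is no bound. Of 5 other receptors and co-receptors, Acvrl1 and Tgfbr3 rose on WTD, by 1.98 and 0.75 (SE 0.21 and 0.16), and 0 passed the test with atorvastatin, where edgeR gave an unadjusted p under 0.05 for Acvrl1, Tgfbrap1 and Eng.
The SMAD carriers behaved otherwise. Of 14 tested genes, Smad3 (0.63, SE 0.14) and Usp11 (1.39, SE 0.41) rose on WTD, Zfyve9, which brings SMADs to the receptor, fell (-0.34, SE 0.11, edgeR adjusted p = 0.0098), and 11 did not pass the test. Neither count was above the background shares of 17.5% higher and 16.0% lower, and the list median was 0.05. With atorvastatin Zfyve9 rose (0.37, SE 0.10, edgeR adjusted p = 0.0070). Of 14 other inhibitors and feedback genes, 5 rose on WTD and 0 fell. These were Pmepa1 (1.49, SE 0.19) and Bambi (1.29, SE 0.23), which damp the signal at the receptor, Skil (0.94, SE 0.16), Ski (0.28, SE 0.08) and Fkbp1a (0.66, SE 0.10). Fkbp1a and Bambi fell with atorvastatin, by 0.39 and 0.73.
Among 22 tested genes known as TGF beta targets, 14 rose on WTD and Zeb1 fell. The collagens Col1a2, Col3a1 and Col1a1 rose by 3.43, 2.83 and 3.53 (SE 0.23, 0.20 and 0.31). Acta2, the actin of myofibroblasts, did not pass the test, with lowest, median and highest values of 3.84, 9.40 and 44.1 CPM on chow and 2.62, 7.11 and 15.6 CPM on WTD. With atorvastatin, Col1a2 fell by 0.77 (SE 0.17) and Fn1, a fibronectin that hepatocytes also secrete, rose by 0.52 (SE 0.09), and the other 20 did not pass the test. Of the CCN relatives of Ctgf, Cyr61 and Wisp2 rose on WTD and Wisp1 did not pass the test. Of 18 targets of YAP and TEAD, which also act on Ctgf, 13 rose on WTD, among them Axl (2.13, SE 0.09), Myof (2.68, SE 0.17) and Ccdc80 (2.55, SE 0.21), Nt5e fell, and the 3 named first fell with atorvastatin, by 0.33, 0.49 and 0.84. Of 25 activin and BMP relatives, 5 rose (Fstl1, Inhbb, Acvr1b, Bmpr2 and Gdf15) and 3 fell (Inhbc, Acvr2b and Bmp2) on WTD. These counts were near the background of 17.5% higher and 16.0% lower, and the list median was 0.15.

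**Figure D4:**
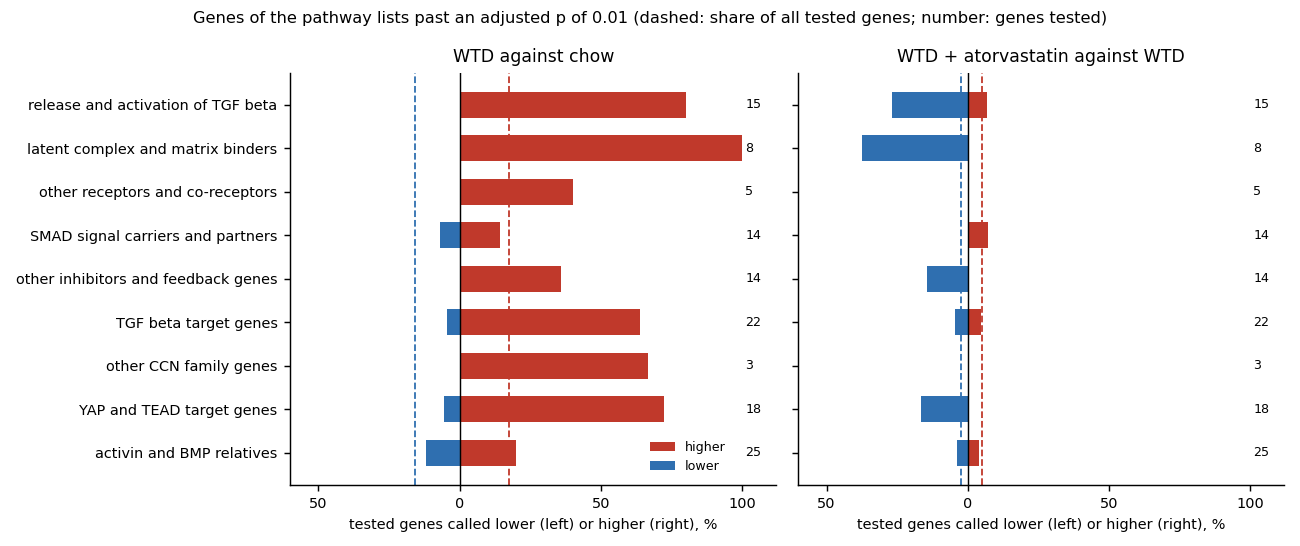
Share of the tested genes of 9 pathway lists (number at the right) that passed an adjusted p of 0.01, in percent, as higher (right of 0) or lower (left of 0), for WTD against chow and atorvastatin against WTD. Dashed lines mark the shares over all tested genes, 17.5% and 16.0% in the first and 4.84% and 2.26% in the second comparison. The bars of the SMAD carriers end short of the lines on WTD.

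Cell type markers moved in the same comparisons. All marker counts on WTD, Kupffer cells included, stand beside 17.5% of all tested genes called as higher and 16.0% as lower. On WTD all 10 hepatocyte markers fell, and their summed level went from 108694 to 159438 CPM on chow to 52524 to 107015 CPM on WTD. All 9 tested macrophage markers rose (summed level 232.4 to 350.6 CPM on chow, 1110 to 2634 CPM on WTD). So did all 8 cholangiocyte markers (106.3 to 184.6 and 210.6 to 889.5 CPM) and 7 of 8 portal fibroblast markers (169.3 to 261.6 and 260.7 to 498.8 CPM). Single genes weighed heavily in these sums. Lyz2 went from a mean of 99.5 to 1099 CPM and the macrophage sum from 304.6 to 2023 CPM. Spp1 went from 94.1 to 520.8 CPM and the cholangiocyte sum from 144.7 to 639.3 CPM. Of the 10 stellate cell markers, 3 rose, among them Cygb and Pdgfrb, Hhip fell, and 6 did not pass the test. Their summed level went from 197.5 to 431.1 CPM to 368.6 to 522.8 CPM. With atorvastatin 7 of 10 hepatocyte and 3 of 10 sinusoidal endothelial markers rose, against 4.84% of all tested genes called as higher. In the same comparison 4 of 9 macrophage, 3 of 8 portal fibroblast and 1 of 8 cholangiocyte markers fell, against 2.26% called as lower. The stellate cell markers split, with Cygb and Pdgfrb lower (-0.59 and -0.61) and Reln higher (0.47), and their summed level was 447.6 ± 43.7 CPM on WTD and 428.1 ± 33.0 CPM with atorvastatin (SD, n = 16 each). The summed macrophage level in treated mice was 921.6 to 1816 CPM, so it stayed above chow.
On WTD 3 of 6 Kupffer cell markers rose. The summed level of the 6 went from 239.0 to 466.0 CPM on chow to 903.1 to 2376 CPM on WTD, with no overlap. Most of this sum came from Cd5l, whose mean went from 113.0 to 979.1 CPM while the summed mean went from 349.4 to 1344 CPM. Clec4f had means of 161.2 and 190.9 CPM, and Marco reached 546.3 CPM in the highest WTD-fed mouse. With atorvastatin, where the summed level was 842.7 to 1489 CPM, Clec4f rose and Cd5l fell. In the other lists, read against the background of 17.5% higher and 16.0% lower, 2 of 10 sinusoidal endothelial markers rose and 4 fell on WTD, 3 of 4 neutrophil markers rose, among them S100a8, 1 of 5 smooth muscle markers rose and 1 fell, and 1 of 6 mesothelial markers rose. Of 9 T and B cell and 4 platelet markers edgeR called 0, with an unadjusted p under 0.05 for 2 of the 9 and 1 of the 4. Itgam and Gp1bb were listed at 0 in all mice. The part of these cell types in the levels of the 10 genes was not tested.

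Across mice, the levels of the 10 genes were compared with Col1a1 as a readout of matrix expression, and those of Tgfb1 with the other 9, within each group. Of the 57 relations, 11 passed an adjusted p of 0.05 for Pearson's r, 9 for Spearman's rho and 7 for both (permutation tests with 100000 permutations, two-sided, log2 CPM). Ltbp2 followed Col1a1 most closely among the atorvastatin-treated mice, with r = 0.944 and rho = 0.953 over 16 mice (p = 1e-05 for both, the smallest the permutations can give, adjusted p = 0.00057). Without the 2 mice farthest from the median of Ltbp2, r was 0.941.
In the same group Tgfbr2 (r = 0.849, rho = 0.847, permutation p = 7.0e-05 and 9.0e-05, adjusted p = 0.0020 and 0.0026) and Tgfbr1 (r = 0.809, rho = 0.832, permutation p = 0.00027 and 0.00018, adjusted p = 0.0051 and 0.0034) also followed Col1a1. Their r without the 2 farthest mice was 0.829 and 0.873. Tgfb1, Tgfb2 and Tgfb3 passed as well, with r from 0.651 to 0.689, while Smad7 did not, with r = 0.236. Without the 1 treated library that missed many weak genes, r was 0.596, 0.627 and 0.650 for the 3 ligands. That run left out all 9 such libraries of the 3 groups and adjusted again over the 57 relations. In it the 3 ligands did not pass (permutation test, adjusted p = 0.13, 0.096 and 0.096 for r).
Among WTD-fed mice, Ltbp2 had r = 0.830 with Col1a1 (permutation p = 0.00048, adjusted p = 0.0056) and rho = 0.621 (permutation p = 0.012, adjusted p = 0.052). Without the 2 farthest mice r was 0.449, so this relation rests on those mice. Tgfb3 passed for r alone (0.740, permutation p = 0.0017, adjusted p = 0.016) and Ctgf for rho alone (0.694, permutation p = 0.0038, adjusted p = 0.027). Without the 5 WTD libraries that missed many weak genes, r was 0.613 for Ltbp2 and 0.424 for Tgfb3. In that run, without all 9 such libraries, neither passed (permutation test, adjusted p = 0.18 and 0.33 for r). Tgfb1 passed with 0 of the other 9 genes within the WTD group (r from -0.32 to 0.22). In the atorvastatin group (r from 0.18 to 0.69) it passed with 2 for r, Ltbp2 and Ctgf, with 1 for rho, Tgfbr1, and with 0 for both. On chow, Tgfbi followed Col1a1 (r = 0.849, permutation p = 0.00049, adjusted p = 0.0056, rho = 0.903, permutation p = 0.00085, adjusted p = 0.0097), and r was 0.769 without the 2 farthest mice and 0.775 without 3 libraries that missed many weak genes (adjusted p = 0.19). Whether the relations differ between groups was not tested.

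**Figure D5:**
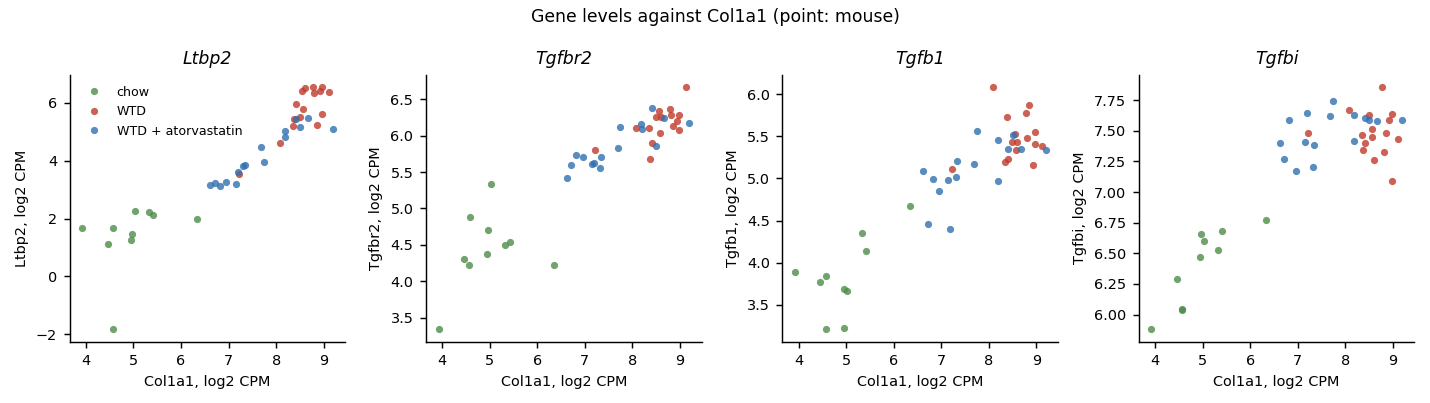
Log2 CPM of Ltbp2, Tgfbr2, Tgfb1 and Tgfbi (vertical axes) against log2 CPM of Col1a1 (horizontal axes), 1 point per mouse, coloured by group. The atorvastatin-treated mice form a line for Ltbp2 (r = 0.944 within the group), while Tgfbi spreads without order among WTD-fed mice (r = -0.09).

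The genes most like each member were sought by Pearson's r of log2 CPM over 42 mice after the group means had been removed, among 10930 tested genes with a mean of at least 100 counts. These values describe the libraries, and weak genes share the missed molecules of a library. Plat (r = 0.858) and Tmem119 (r = 0.851) were most like Tgfb2, with 0.781 or more in each group. For Ltbp2 the closest were Uap1l1 (0.809), Timp2 (0.777) and Cx3cr1 (0.766), and Timp2 had 0.489 on chow, 0.930 on WTD and 0.886 with atorvastatin. Myo5a was closest to Tgfbr1 (0.799), Sdcbp to Tgfbr2 (0.785), Msn to Tgfb1 (0.695), Nup54 to Ctgf (0.659), Rbms3 to Tgfbi (0.640) and Ltbp4 to Smad7 (0.573). Lamb2 was closest to Ltbp1 (0.677), with 0.807 on chow and 0.750 on WTD but 0.0401 with atorvastatin. For Tgfb3, Nav1 (0.870) and Mpzl1 (0.868) were among the 3 closest, with Nav1 at 0.925 on chow, 0.777 on WTD and 0.603 with atorvastatin, and Tgfb3 itself had r = -0.91 with the share of missed weak genes on chow.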

How the data were processed

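Liver RNA of 42 mice was sequenced as strand-specific poly(A) libraries. Per the submitters' processing notes and the study's methods, the authors trimmed reads with Trimmomatic, aligned them with STAR 2.5 to GRCm38 and counted reads per gene with HTSeq 0.6.1p1, with DESeq2 for their own comparisons. The deposited values are raw counts per gene, not normalized, and the merged table equalled the 42 single files. Symbols and exon lengths came from GENCODE (54409 of 54446 identifiers matched). The 5 summary rows were left out, the largest being ambiguous pairs at a mean of 5.95% against 2.28% without a feature.

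From these counts, edgeR 4.0.16 in R 4.3.3 was run on all 42 mice (TMM, filterByExpr with a minimum count of 10 and a minimum total of 15, robust quasi-likelihood fit, Benjamini-Hochberg adjustment over 15574 genes, threshold 0.01). The standard errors (SE) given with edgeR values are not an output of that test. They were derived as the absolute log2 fold change divided by the square root of its F statistic. Alternatives were DESeq2 1.42.0, limma-voom 3.58.1, other scalings, filters and samples. The fit was tested on simulated data for WTD against chow over 15328 genes. It called 22 of 99 genes changed by 0.5 and 60 of 96 changed by 1 on the log2 scale. Of 15133 unchanged genes it called 0. Far fewer genes were changed there than were called in the data (33.5%), and no simulated library was made to miss weak genes. These counts therefore check the fit and do not give its recovery or false calls in these data. Relations across mice used log2 CPM with a prior count of 2 and 100000 permutations, computed with Python 3.11.15, numpy 2.4.6, pandas 2.3.3 and scipy 1.17.1, and figures with matplotlib 3.10.9. Depth set the floor of 3 counts for genes without a read, and floors cover counting error only. Each library is a separate mouse.

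The members, gene lists and tests were chosen with earlier results of these data known, so no list is independent evidence. All 10 members were named, with genes from among the 3 most similar to each. Some genes that this rule or the lists would name are not reported here. The rule for pathway lists took the 3 tested genes with the smallest p in each comparison, and list genes outside it (such as Plau, Plat, Thbs1 and Acta2) were chosen after their values were seen. Promoter sequences are from RefSeq's GRCm38.p6.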

Additional observations from a re-analysis of the deposited data

Results flagged for a closer look

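Tgfb2 in chow-fed mice had 1 mouse far from the others. The highest value was 5.44 CPM, in replicate 6, whose library missed 24.4% of the weak genes, and the next was 1.25 CPM. The gap made up 0.770 of the whole range of the 10 mice and passed Dixon's limit for 10 values. That limit is passed by chance in about 1 in 20 groups of normally distributed values. Here the values lie near 0, with no read in 2 mice, and the gap was flagged for its size. The rate of 1 in 20 therefore does not carry over to it. The cause was not tested.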

How the results depend on the processing

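The count of members called as changed with atorvastatin against WTD depended on the setting. It was 1 with edgeR, 4 with DESeq2, 8 with limma-voom, 3 with only the groups compared, 3 without the 9 libraries that missed many weak genes, 2 with the share of missed weak genes as a covariate and 4 at an adjusted p under 0.05. It was 0 with at least 10 counts in every mouse, a filter that kept 7 members and dropped Ltbp2, Tgfb2 and Tgfb3. In either direction, edgeR called 1106 of all 15574 tested genes in the main fit and 1361 of 14595 with only the groups compared. It called 983 of 15574 with the covariate and 1160 of 9973 with at least 10 counts in every mouse. At an adjusted p under 0.05 there were 2021 of 15574. Leaving out 1 mouse at a time gave 1 to 2, with Tgfb3 added without chow replicate 2 or WTD replicate 15, and Ctgf without WTD replicate 9 or atorvastatin replicate 1. For WTD against chow the count stayed between 7 and 10, and for atorvastatin against chow between 7 and 10, where Smad7 was lost with the covariate (adjusted p = 0.018). Of the 57 relations, 11 passed for r, 4 without the 9 libraries and 16 after adjustment for the missed share. The difference of Smad7 between atorvastatin and WTD turned to -0.0152 with the covariate. That of Tgfbi turned to -0.0316 with DESeq2, -0.0215 with limma-voom, -0.0316 with RLE, -0.0163 with upper-quartile scaling, -0.0273 with at least 10 counts in every mouse and -0.0189 with the covariate, and lay between -0.0118 and 0.0397 when 1 mouse was left out. The cause of these shifts was not tested. No paired analysis was possible because replicate numbers in different groups name different mice. On chow, Tgfb2 had no read in replicates 2 and 5, and Tgfb3 had none in replicate 2. These libraries held 17342797 and 21850293 counted read pairs, against a chow median of 20405093.5. They missed 57.3% and 43.1% of the weak genes, and the cause was not tested.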
